A study of Mus with 18 samples.

Results

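The genes described here are 10 regulatory interleukins and receptor chains: the ligand subunits Il10, Il12b, Il27, Ebi3 and Il15, and the receptor chains Il10ra, Il10rb, Il4ra, Il13ra1 and Il15ra. They were chosen by gene symbol. Of the 10, 9 had a row among the 21401 symbols of each of 2 expression tables, 1 for C2C12 cells and 1 for muscle, and Il12b is not analysed here. Each table held 9 libraries, 3 from each of 3 groups.

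C2C12 is a line of wild type mouse myoblasts, the precursors that fuse into muscle fibres. Its groups were a control given saline vehicle, cells treated with lipopolysaccharide (LPS, a bacterial cell wall component) at 1 μg/mL, and LPS-MIC-1 cells kept for 24 h with 10 μM moringa isothiocyanate-1 (MIC-1, a compound from Moringa seeds) beside the same dose of LPS. The saline vehicle and the dose of MIC-1 are those of the sample labels, whereas the text of the study names ethanol as the vehicle of the cells and a lower dose. The muscle was gastrocnemius of wild type C57BL/6 male mice of unstated age, in a vehicle control, a group injected with 10 mg/kg LPS into the peritoneum, and an LPS-MIC-1 group given 80 mg/kg MIC-1 in 10% DMSO by gavage daily for 3 days before the same injection, with muscle collected 16 h after LPS. No group received MIC-1 without LPS in either experiment. The labels do not say whether the 3 C2C12 libraries of a group came from separate cultures, so p-values there measure the spread between these libraries, which may be technical.

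These proteins limit and direct immune responses. IL-10 acts through a receptor of 2 chains, Il10ra, which is specific to it, and Il10rb, which is shared with the IL-22 family, and signals mainly through Stat3 to restrain activated macrophages. IL-27 is a pair of the Il27 chain and Ebi3, IL-12 pairs Il12a with Il12b, and IL-4 and IL-13 signal to Stat6 through Il4ra, joined either with the common gamma chain Il2rg or with Il13ra1. IL-15, which sustains T and natural killer cells and is also made by muscle, is held on the cell surface by Il15ra and presented to cells that carry Il2rb and Il2rg. Macrophages exposed to LPS are a known source of IL-10, IL-27 and IL-15, and Il10ra is mainly a gene of blood cells.

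Values are FPKM, a read abundance scaled for transcript length and library size, so levels of different genes can be set side by side. Differences were fitted with limma on log2(FPKM + 0.1) over all genes with a mean above 1 FPKM in the experiment, with Benjamini-Hochberg adjustment of p over all of these genes. A gene was called higher or lower where its log2 fold change was over 1 in size and its adjusted p was under 0.001 in C2C12 or under 0.05 in muscle. The 9 genes were all among the 10877 tested in C2C12, whereas only Il10rb, Il4ra and Il15ra were among the 9475 tested in muscle. With 3 libraries against 3, an exact 2-sided permutation test of a single gene cannot go below p = 0.1.

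The marker content of several libraries went against their labels. Of 15 macrophage markers, 14 were found, and their summed level was 10499 to 10544 FPKM in the libraries labelled C2C12 control, 7520 to 7753 in those labelled C2C12 LPS, and 282, 80.3 and 90.6 in C2C12 LPS-MIC-1 replicates 1, 2 and 3. The 10 myoblast markers had sums of 1.08 to 1.47 FPKM for control, 1.99 to 4.61 for LPS and 951.9 to 1201 for LPS-MIC-1, and 5 of them, among them Myf5 and Myog, are listed at 0 in every control library. So the control and LPS libraries carried macrophage markers and almost no myoblast markers. The LPS-MIC-1 libraries carried myoblast markers and far lower levels of macrophage markers. The median macrophage marker there was at 6.83, 0.373 and 0.125 FPKM in replicates 1, 2 and 3. Cd14 had the highest mean of these markers in LPS-MIC-1, at 99.3 FPKM. The 6 fibroblast markers went with the myoblast markers, with sums of 0.0245 to 0.0543 FPKM (control), 0.848 to 1.95 (LPS) and 441.8 to 537.1 (LPS-MIC-1). In muscle, 10 genes known to rise with LPS had sums of 20.6 to 25.1 FPKM for control, 25.6 to 26.9 for LPS and 1811 to 2024 for LPS-MIC-1, and the macrophage list reached 211 FPKM in LPS-MIC-1 replicate 3 against 27.7 to 52.5 in the other 8 muscle libraries. Every direction below is one between libraries that carry these labels. In C2C12, the treatment with MIC-1 and the change of marker content cannot be told apart, and in bulk samples fewer cells of a type cannot be told apart from less RNA per cell.

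In the libraries labelled C2C12, the ligand genes Il10, Il27, Ebi3 and Il15 were all lowest in LPS-MIC-1, and 3 of the 5 receptor chains, Il10ra, Il10rb and Il15ra, were lower there too. The IL-4 receptor chain Il4ra went the other way, with means ± SD (n = 3) of 2.20 ± 0.185 FPKM for control, 13.5 ± 1.21 for LPS and 31.6 ± 1.92 for LPS-MIC-1. The other chain that pairs with it, Il13ra1, stood between 12.7 and 18.7 FPKM in all 9 libraries.

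**Figure D1:**
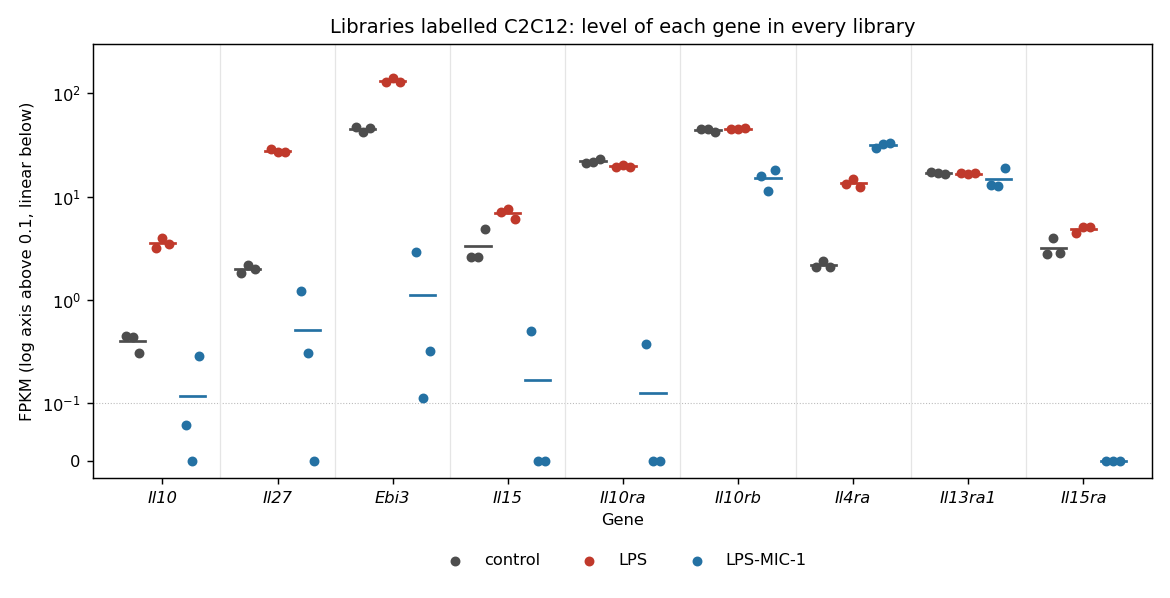
Level of each of the 9 genes in FPKM (vertical axis, logarithmic above 0.1 and linear below) in every library labelled C2C12. Points are libraries and short lines are group means of 3. Il10, Il27, Ebi3, Il15, Il10ra and Il15ra drop to near 0 in LPS-MIC-1, while Il4ra is highest there.

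Il10, the ligand that restrains macrophage activation, had 0.448, 0.443 and 0.306 FPKM in the control libraries, 3.17, 3.94 and 3.50 in the LPS libraries and 0.0621, 0 and 0.288 in the LPS-MIC-1 libraries. The 3 groups did not overlap, with LPS high and LPS-MIC-1 low. Il10 passed the filter on the mean only through its LPS libraries, so its p-values and calls are a description. Il10 rose 8.88-fold with LPS by the ratio of means, a log2 fold change of 2.88 (SE 0.440, limma adjusted p = 5.84e-04). Its LPS-MIC-1 mean was 30.4-fold lower than the LPS mean (log2 fold change -4.30, limma adjusted p = 2.64e-05). Against control, the fitted difference of -1.42 in LPS-MIC-1 (limma adjusted p = 0.0165) did not pass the threshold. The call with LPS was lost with a pseudocount of 0.01 (adjusted p = 0.0318) and on leaving out LPS-MIC-1 replicate 1 or any single control or LPS library (adjusted p from 0.00106 to 0.00339).

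Il27, the chain that gives IL-27 its specificity, had 1.81, 2.17 and 1.98 FPKM in control, 28.6, 27.2 and 26.8 in LPS and 1.21, 0.307 and 0 in LPS-MIC-1. Again no group overlapped another, and the LPS libraries were the high ones. The LPS mean was 13.9-fold that of control, yet the fitted log2 difference of 3.73 (SE 0.775, limma adjusted p = 0.00314) did not pass the threshold. The spread behind this SE is shared by the 3 groups, and the LPS-MIC-1 libraries are the widest on the log scale. With only the 6 control and LPS libraries in the fit, the adjusted p was 5.77e-07. In LPS-MIC-1, the mean of Il27 was 54.3-fold under that of LPS, a log2 fold change of -6.20 (limma adjusted p = 9.41e-05).

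Ebi3, the partner chain of Il27, had the highest level of the 9 genes in the LPS libraries, at 127, 141 and 129 FPKM, compared with 47.6, 42.5 and 45.9 in control and 2.92, 0.113 and 0.322 in LPS-MIC-1. The groups did not overlap, and LPS-MIC-1 replicate 1 stood above the other 2 libraries of its group. The LPS mean was 2.93-fold that of control, with a fitted log2 difference of 1.55 (95% interval -0.36 to 3.45, limma adjusted p = 0.138) that did not pass the threshold, and with only the 6 libraries of these groups in the fit the adjusted p was 4.87e-06. Ebi3 was called lower in LPS-MIC-1, by a log2 fold change of -7.68 against LPS (SE 0.824, limma adjusted p = 3.52e-05) and -6.13 against control (limma adjusted p = 1.65e-04). The call against control was lost with only the 6 libraries of those groups (adjusted p = 0.00147) and without control replicate 1 (adjusted p = 0.001002).

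The 2 chains of IL-27 differed in how far apart their control and LPS levels were. The FPKM of Ebi3 was 23.0 ± 3.34 times that of Il27 in control and 4.83 ± 0.374 times in LPS (SD, n = 3). All 3 LPS ratios, from 4.45 to 5.20, were under the 3 control ratios, from 19.6 to 26.3. No ratio is given for LPS-MIC-1, where Il27 is listed at 0 in replicate 3.

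Il15, the ligand that sustains natural killer and memory T cells, had 2.62, 2.59 and 4.85 FPKM in control, 7.04, 7.58 and 6.05 in LPS, and 0.501, 0 and 0 in LPS-MIC-1. Control replicate 3 lay between its group and the LPS libraries, and the groups did not overlap. The log2 difference between LPS and control was 1.07 (SE 0.662, limma adjusted p = 0.194) and did not pass the threshold. Il15 was called lower in LPS-MIC-1, by a log2 fold change of -5.26 against LPS (limma adjusted p = 9.75e-05) and -4.18 against control (limma adjusted p = 4.50e-04). The first of these calls was lost with a pseudocount of 0.01. The second was lost with that pseudocount, with only the 6 libraries compared (adjusted p = 0.00306), and without any single library other than LPS-MIC-1 replicate 1 (adjusted p up to 0.00251).

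The 2 chains of the IL-10 receptor did not move alike. Il10ra, the chain specific to IL-10, had 21.3, 21.4 and 23.1 FPKM in control, 19.3, 20.3 and 19.4 in LPS, and 0.377, 0 and 0 in LPS-MIC-1. The LPS libraries were slightly under the control libraries, and the LPS-MIC-1 libraries were near 0. Il10ra was called lower there, by a log2 fold change of -6.87 against LPS (SE 0.543, limma adjusted p = 5.06e-06) and -7.03 against control (limma adjusted p = 5.03e-06). Between LPS and control its log2 difference was -0.16 (95% interval -1.42 to 1.10), which reaches past the fold threshold on both sides. The spread behind this interval is shared by the 3 groups, and the LPS-MIC-1 libraries are the widest on the log scale. The control and LPS libraries had SDs of only 1.01 and 0.532 FPKM around means of 22.0 and 19.6.

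Il10rb, the chain shared with the receptors of the IL-22 family, had 44.7, 45.5 and 42.4 FPKM in control, 45.2, 44.9 and 46.1 in LPS, and 15.8, 11.3 and 18.1 in LPS-MIC-1. Control and LPS overlapped, and their log2 difference was 0.04 (95% interval -0.31 to 0.39, limma adjusted p = 0.853). All LPS-MIC-1 libraries were lower, with a log2 fold change of -1.61 against LPS (SE 0.151, limma adjusted p = 1.48e-05) and -1.57 against control (limma adjusted p = 1.96e-05). Unlike Il10ra, Il10rb remained well above 0 in LPS-MIC-1, at 15.1 ± 3.49 FPKM (SD, n = 3). In control and LPS the level of Il10rb was 2.02 ± 0.160 and 2.31 ± 0.0833 times that of Il10ra.

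Il4ra, the chain common to both receptors of IL-4 and to that of IL-13, had 2.08, 2.41 and 2.10 FPKM in control, 13.2, 14.8 and 12.4 in LPS, and 29.4, 32.6 and 32.7 in LPS-MIC-1. The groups stood apart in that order, and it was the only one of the 9 genes whose LPS-MIC-1 libraries were all above the LPS libraries. It rose 6.13-fold with LPS (log2 fold change 2.56, SE 0.0948, limma adjusted p = 2.60e-07). It was a further 2.35-fold higher in LPS-MIC-1 (log2 fold change 1.23, SE 0.0948, limma adjusted p = 4.40e-06), and 14.4-fold above control. None of these calls was lost when any single library was left out.

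Il13ra1, which joins Il4ra in the receptor found mostly outside the lymphoid lineages, had 17.5, 16.8 and 16.5 FPKM in control, 16.8, 16.5 and 16.8 in LPS, and 12.9, 12.7 and 18.7 in LPS-MIC-1. LPS-MIC-1 replicate 3 was the highest library and the other 2 of its group were the lowest. The log2 difference was -0.02 between LPS and control (95% interval -0.34 to 0.30), -0.20 between LPS-MIC-1 and LPS (-0.51 to 0.12) and -0.22 between LPS-MIC-1 and control (-0.53 to 0.10), so each interval was within the fold threshold. Without LPS-MIC-1 replicate 3, the differences of LPS-MIC-1 from LPS and from control were -0.38 (limma adjusted p = 9.61e-05) and -0.40 (limma adjusted p = 8.07e-05), still under the fold threshold. The FPKM of Il13ra1 per FPKM of Il4ra was 7.75 ± 0.724 for control, 1.25 ± 0.121 for LPS and 0.468 ± 0.0936 for LPS-MIC-1 (SD, n = 3), with no overlap between groups. Per FPKM of Il2rg, the common gamma chain, Il4ra was at 0.0497 ± 0.00293, 0.220 ± 0.0247 and 4.30 ± 0.811. Il2rg itself was at 44.2 ± 2.41, 61.3 ± 1.53 and 7.47 ± 1.02 FPKM in the same order.

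Il15ra, which presents IL-15 at the cell surface, had 2.78, 3.97 and 2.85 FPKM in control and 4.50, 5.14 and 5.07 in LPS, and is listed at 0 in all 3 LPS-MIC-1 libraries. The LPS libraries were all above the control libraries, with a log2 difference of 0.62 (SE 0.160, limma adjusted p = 0.00980) that did not pass the threshold. The lower level in LPS-MIC-1 was called against LPS (limma adjusted p = 1.60e-08) and against control (limma adjusted p = 2.66e-08), and no fold is given against a group listed at 0. The 3 values listed at 0 have no spread, which narrows the spread shared by the groups and lowers these p-values. The authors' mean of normalized counts for Il15ra was 56.0 per library over the LPS and LPS-MIC-1 libraries together, and 40.5 over those of control and LPS-MIC-1.

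**Figure D2:**
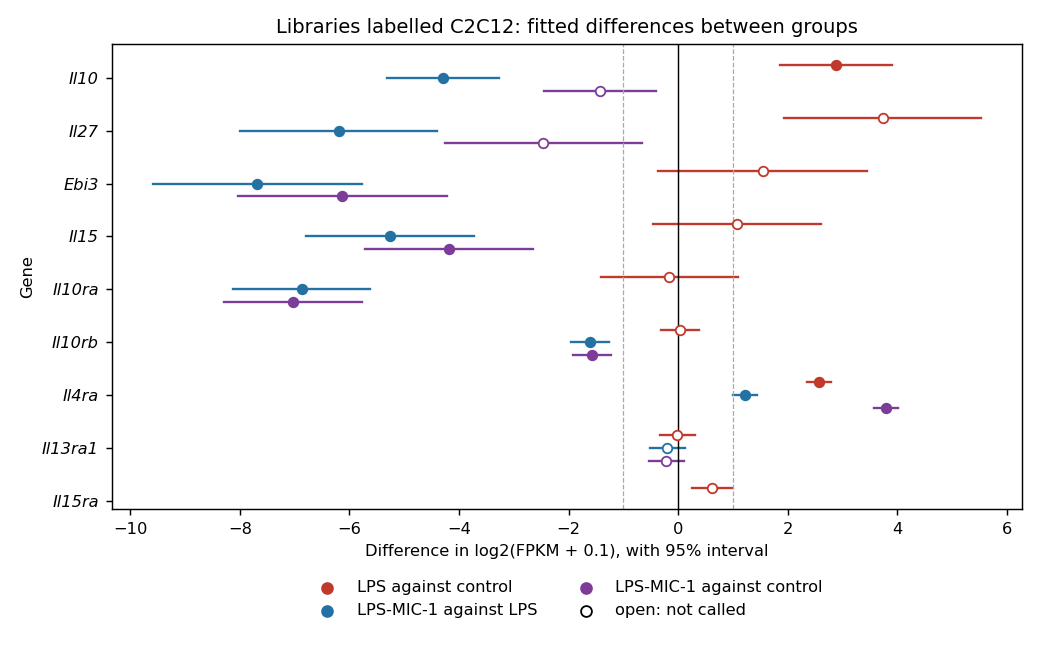
Fitted differences between groups for each gene in the libraries labelled C2C12, as log2(FPKM + 0.1) with 95% intervals on the horizontal axis. Filled points were called and open points were not, dashed lines mark the fold threshold, and the comparisons of Il15ra with LPS-MIC-1 are left out because that group is listed at 0. Il4ra is to the right of 0 in all 3 comparisons, and Il13ra1 is close to 0 in all 3.

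Counted over the 9 genes, 2 were called between LPS and control, Il10 and Il4ra, both higher, where 20.9% of all genes tested were called and 10.9% were called higher. Between LPS-MIC-1 and LPS, 8 of the 9 were called, 7 of them lower, against 49.9% of all genes tested called and 25.6% called lower. Between LPS-MIC-1 and control, 6 of the 9 were called, 5 lower and Il4ra higher, against 43.3% of all genes tested called and 22.1% called lower. The median log2 fold change of the 9 genes was 1.07, -5.26 and -2.46 in these comparisons, whereas that of all genes tested was 0.00, -0.05 and -0.06. Groups that do not overlap were common over all genes, at 79.4%, 85.5% and 83% of those tested. The comparisons share libraries, so their counts are not independent of each other. Il10 was tested only through its level in the LPS libraries, since its control and LPS-MIC-1 libraries were all under 1 FPKM. Its place in these counts and medians is therefore a description, and the fitted value of Il15ra within the medians depends on the added 0.1.

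The level that was left in LPS-MIC-1 differed between the genes and between the libraries. Each of the 14 macrophage markers was taken as a percentage of its own LPS mean. In replicate 1, the median of these percentages was 2.83%. There Ebi3 was at 2.20% of its LPS mean, Il27 at 4.41%, Il15 at 7.28%, Il10ra at 1.92% and Il10 at 1.76%. In replicates 2 and 3 the median of the marker percentages was 0.107% and 0.0224%, with Ebi3 at 0.0849% and 0.243%, and Il15 and Il10ra listed at 0 in both. Il27 was at 1.12% in replicate 2 and listed at 0 in replicate 3. Il13ra1, at 76.2 to 112%, and Il4ra, at 218 to 243%, were above each of the 14 markers in all 3 libraries, the highest marker being at 49.98%, 3.62% and 4.33% in replicates 1, 2 and 3. Il10rb, at 34.9%, 24.8% and 40.0%, was above the marker median in all 3 but under the highest marker in replicate 1. That marker was C1qb, whose mean was only 0.152 FPKM for LPS and 0.0253 for LPS-MIC-1. Its percentage rests on these very low levels, so it is no measure of how far macrophage markers were kept. Il10 in replicate 3, at 8.12%, was above the markers on a level of 0.288 FPKM, and the authors' mean of normalized counts for Il10 over the control and LPS-MIC-1 libraries was 4.76 per library. Without replicate 1, the same number of genes, 8, was called against LPS, and the log2 fold changes of Il27 and Ebi3 were -7.10 and -8.79. No fold is given there for Il15 and Il10ra, which are listed at 0 in replicates 2 and 3.

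**Figure D3:**
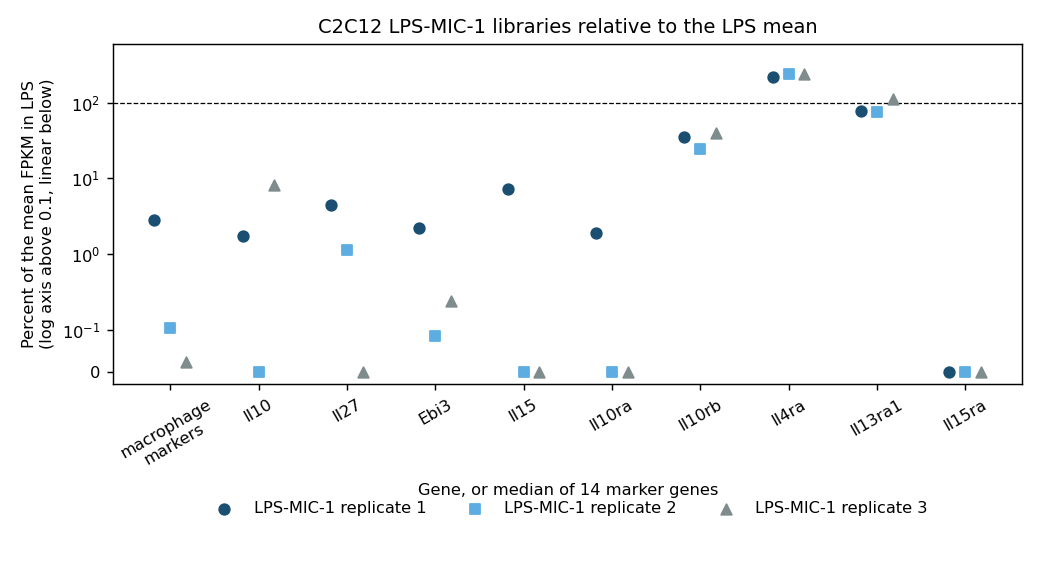
Each LPS-MIC-1 library of C2C12 as a percentage of the mean FPKM in LPS (vertical axis, logarithmic above 0.1 and linear below), for each gene. For 14 macrophage markers, the median of their percentages is shown, each marker being set against its own LPS mean. The dashed line marks 100% and each symbol is a library. Il10rb, Il13ra1 and Il4ra lie above the median of the markers, while Ebi3, Il27, Il15 and Il10ra are highest in replicate 1, as the markers are.

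Within the libraries labelled C2C12, the order of the levels changed with the group. In control, Ebi3 and Il10rb were the highest and overlapped, followed by Il10ra, Il13ra1, Il15, Il15ra, Il4ra, Il27 and Il10. Il15 overlapped Il15ra, and Il4ra overlapped Il27. In LPS no neighbours overlapped, and Il27 moved from the eighth to the third place. In LPS-MIC-1 Il4ra was first, Il10rb and Il13ra1 overlapped behind it, and the 6 others had means from 0 to 1.12 FPKM.

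Of the genes that work with these, 54 had a row, and 23 were tested in C2C12. The list holds related interleukins and receptors, the Jak kinases and Stat factors, and genes known to respond to IL-10 or to IL-4. Between LPS and control, 7 of the 23 were called higher and 1 lower, against 10.9% and 10% of all genes tested, with a median log2 fold change of 0.85. Cish and Il7r were tested only through their LPS libraries and Il13ra2 only through LPS-MIC-1, so their place in these counts and medians, and their p-values, are a description. Cish and Socs3, inhibitors of cytokine signalling, went from 0.0405 ± 0.0433 to 17.0 ± 1.43 FPKM and from 33.0 ± 1.43 to 298 ± 2.47 FPKM. Their log2 fold changes were 6.97 (limma adjusted p = 1.79e-04) and 3.17 (limma adjusted p = 6.95e-07). Il13ra2, a receptor chain that binds IL-13 and is known mainly as a decoy, had 1.41, 0.936 and 0.649 FPKM in LPS, whereas every control library is listed at 0 (limma adjusted p = 1.40e-05). All LPS-MIC-1 libraries were above these, at 2.46, 1.62 and 2.41 FPKM, where the log2 difference from LPS was 1.08 (limma adjusted p = 0.00589) and did not pass.

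Between LPS-MIC-1 and LPS, 15 of the 23 pathway genes were called lower and 1 higher, against 25.6% and 24.3% of all genes tested, with a median of -1.98. Stat6, the factor that Il4ra activates, had 57.6 ± 0.610 FPKM for LPS against 0.911 ± 0.893 for LPS-MIC-1 (log2 fold change -6.19, limma adjusted p = 5.76e-06). It fell where Il4ra rose, and a link between them was not tested. Of the 3 IL-4 response genes tested, 1 was called higher and 1, Cish, lower. The higher one was Socs1, with 3.84 ± 0.229 FPKM for LPS and 14.4 ± 1.81 for LPS-MIC-1. Il7r, the IL-7 receptor chain, fell by 5.91 on the log2 scale (limma adjusted p = 7.50e-06), and the log2 fold change of Cish was -5.10 (limma adjusted p = 6.38e-04). Of the shared chains, Il2rg fell by 3.03 (limma adjusted p = 2.89e-08) and Il12rb1, which serves IL-12 and IL-23, by 1.96 (limma adjusted p = 7.09e-06). Il6st, the signalling chain shared by IL-27 and the IL-6 family, had 20.8 ± 0.639 FPKM for LPS against 11.5 ± 0.881 for LPS-MIC-1, a log2 difference of -0.84 that was under the fold threshold. Il12a had 0.704 to 0.887 FPKM in LPS-MIC-1 and is listed at 0 in the other 6 libraries, and Il2rb was under 0.3 FPKM in all 9, so neither was tested.

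Between LPS-MIC-1 and control, 10 of the 23 were called lower and 3 higher, against 22.1% and 21.1% of all genes tested, with a median of -1.15. The largest were those of Stat6, with a log2 fold change of -6.60 (limma adjusted p = 4.39e-06), of Zfp36, a protein that speeds the decay of cytokine messages, with -3.70 (limma adjusted p = 1.16e-06), and of Il13ra2, which was higher.

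In gastrocnemius muscle, Il4ra was the only gene called of the 3 tested. It was higher in the LPS-MIC-1 libraries, at 5.37 ± 1.11 FPKM, than in those of LPS, at 0.816 ± 0.390, and control, at 1.62 ± 0.109 (SD, n = 3). Il13ra1, Ebi3 and, in part, Il27 and Il15 were also highest in LPS-MIC-1, at levels that kept them out of the test. Il15ra and Il10rb were highest in control. The 2 tables were analysed apart, and levels are not compared by a test between them.

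**Figure D4:**
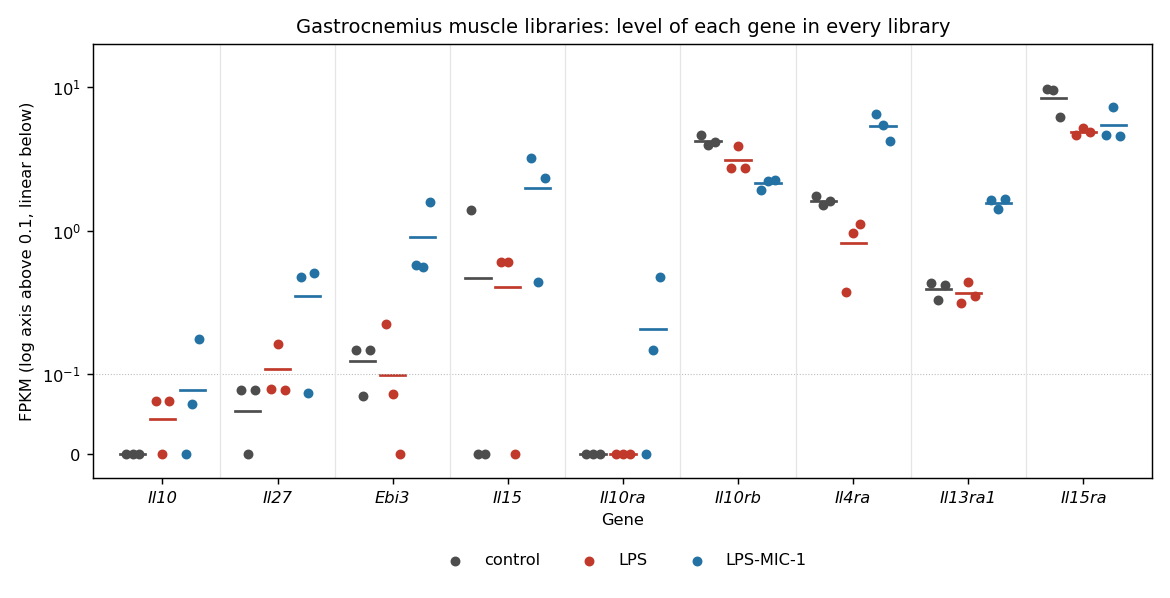
Level of each of the 9 genes in FPKM (vertical axis, logarithmic above 0.1 and linear below) in every muscle library. Points are libraries and short lines are group means of 3. Il4ra, Il13ra1 and Ebi3 are highest in the 3 LPS-MIC-1 libraries, and Il10 and Il10ra are near or at 0 in most libraries.

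Il4ra had 1.74, 1.52 and 1.60 FPKM in control, 0.374, 0.960 and 1.11 in LPS, and 6.46, 5.41 and 4.24 in LPS-MIC-1. The 3 groups did not overlap, LPS being the lowest and LPS-MIC-1 the highest. Its LPS-MIC-1 mean was 6.58-fold that of LPS (log2 fold change 2.67, SE 0.336, limma adjusted p = 2.04e-04) and 3.32-fold that of control (log2 fold change 1.65, limma adjusted p = 0.00299). The difference of -1.02 between LPS and control (limma adjusted p = 0.0792) did not pass. In LPS-MIC-1 replicate 3, the library with the most macrophage markers, Il4ra was the lowest of its group, and a link between these was not tested. Without that library the log2 fold change against LPS was 2.83 (limma adjusted p = 6.71e-04).

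Il10rb had 4.66, 3.93 and 4.15 FPKM in control, 2.72, 3.92 and 2.74 in LPS, and 1.93, 2.23 and 2.27 in LPS-MIC-1. LPS replicate 2 was close to the control libraries, and the LPS-MIC-1 libraries were the lowest. The log2 difference was -0.96 between LPS-MIC-1 and control (SE 0.153, limma adjusted p = 8.06e-04), which was just under the fold threshold, -0.51 between LPS-MIC-1 and LPS (limma adjusted p = 0.0205) and -0.45 between LPS and control (limma adjusted p = 0.0887). Without control replicate 2, the difference from control was past the threshold, at -1.01. Il15ra had 9.67, 9.51 and 6.18 FPKM in control, 4.66, 5.17 and 4.84 in LPS, and 4.64, 7.23 and 4.58 in LPS-MIC-1. Control replicate 3 and LPS-MIC-1 replicate 2 stood apart from their groups, and LPS-MIC-1 overlapped both other groups. Its log2 difference was -0.75 between LPS and control (limma adjusted p = 0.0507), -0.62 between LPS-MIC-1 and control (limma adjusted p = 0.0367) and 0.13 between LPS-MIC-1 and LPS (95% interval -0.36 to 0.63), none of them past the fold threshold.

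Of the 3 genes tested, limma called 0 between LPS and control, where 1.25% of all genes tested were called (0.654% higher and 0.591% lower), although all 3 had an unadjusted p under 0.05 and lower means in LPS. Il4ra was the 1 gene called between LPS-MIC-1 and LPS, where 15.1% of all genes were called, 9.67% higher and 5.44% lower, and the 1 called between LPS-MIC-1 and control, where 15.5% were called, 9.33% higher and 6.12% lower. Groups did not overlap for 36.5%, 64.2% and 64.6% of all genes tested in these comparisons.

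Markers of other cells moved with the muscle groups too. The 7 neutrophil markers found of 8 had sums of 14.3 to 19.8 FPKM in LPS-MIC-1 and 1.73 to 2.74 in the other 6 libraries, and the macrophage list had sums of 27.7 to 31.9 (control), 41.3 to 44.0 (LPS) and 49.7 to 211 (LPS-MIC-1). Of the 14 macrophage markers, 2, Emr1 and Ptprc, are listed at 0 in all LPS libraries, while others, such as Lyz2 and C1qa, had higher means in LPS than in control. The 7 endothelial markers had sums of 77.1 to 81.7 FPKM in control, 49.6 to 51.4 among LPS libraries and 54.1 to 59.4 among those of LPS-MIC-1, so they were highest in control, as Il10rb and Il15ra were. The part of these cells in the values of these genes was not tested.

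The other 6 genes were under the mean of 1 FPKM. Ebi3 had 0.148, 0.0732 and 0.148 FPKM in control, 0.223, 0.0749 and 0 in LPS, and 0.581, 0.558 and 1.59 in LPS-MIC-1, so LPS-MIC-1 did not overlap the others and replicate 3 was its highest library. Il13ra1 had 0.435, 0.329 and 0.417 FPKM in control, 0.313, 0.440 and 0.352 in LPS, and 1.63, 1.42 and 1.66 in LPS-MIC-1, where all 3 libraries were high. With no filter on the mean, limma called both higher in LPS-MIC-1, Ebi3 by 2.36 (adjusted p = 0.00612) and Il13ra1 by 1.84 (adjusted p = 1.13e-04) on the log2 scale against LPS, and against control by 2.05 (adjusted p = 0.0114) and 1.76 (adjusted p = 1.40e-04). In LPS-MIC-1 the FPKM of Il13ra1 was 0.302 ± 0.0780 of that of Il4ra, which overlapped its share of 0.243 ± 0.0230 in control and of 0.537 ± 0.269 in LPS. The LPS shares, from 0.316 to 0.837, were all above those of control.

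Il27 had 0.476, 0.0762 and 0.506 FPKM in the LPS-MIC-1 libraries and 0 to 0.164 in the other 6, and replicate 2 lay within the range of those. Il15 had 1.40, 0 and 0 FPKM in control, 0.603, 0.606 and 0 in LPS, and 3.20, 0.440 and 2.33 in LPS-MIC-1, so the groups overlapped. Il10, listed at 0 for every control library, reached 0.0665 FPKM among LPS libraries and 0.177 among those of LPS-MIC-1. Il10ra had 0, 0.147 and 0.478 FPKM in LPS-MIC-1 and is listed at 0 in the other 6. For Il10, Il10ra, Il27 and Ebi3, LPS-MIC-1 replicate 3 was the highest of the 9 muscle libraries, as it was for the macrophage list. The values rest on few reads: over the LPS and LPS-MIC-1 libraries, the authors' mean of normalized counts per library was 0.967 for Il10, 4.83 for Il10ra, 2.94 for Il27, 7.01 for Ebi3 and 18.5 for Il15.

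Il15ra, Il10rb and Il4ra had the highest levels in muscle control, in that order and without overlap between neighbours, and Il15ra and Il10rb were ahead in LPS as well. In LPS-MIC-1 Il15ra and Il4ra overlapped at the head of the order, ahead of Il10rb, Il15 and Il13ra1, whose libraries overlapped from 1 gene to the next.

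Of the pathway genes, 21 were tested in muscle. Etv3 was among them only through its LPS-MIC-1 libraries, so its place in these counts and medians is a description. Between LPS and control 3 were called, all lower, against 0.591% of all genes tested called lower, with a median log2 fold change of -0.18, where that of all genes tested was 0.01. They were the signalling inhibitors Socs1, from 48.8 ± 1.08 to 0.866 ± 0.478 FPKM (log2 fold change -5.79, limma adjusted p = 1.84e-05), Cish, from 47.1 ± 0.283 to 4.42 ± 0.540 (-3.39, limma adjusted p = 4.34e-07), and Socs3, from 5.50 ± 0.771 to 0.697 ± 0.395 (-2.95, limma adjusted p = 0.00112). In LPS-MIC-1 relative to LPS, 8 were called higher and 1, Cish, lower, against 9.67% and 5.44% of all genes tested, with a median of 0.52 where that of all genes was -0.01. Socs3 rose by 3.03 (limma adjusted p = 1.42e-04), Zfp36 by 2.89 (limma adjusted p = 1.81e-08) and Nfil3, a transcription factor, by 2.73 (limma adjusted p = 4.41e-09). Between LPS-MIC-1 and control, 7 were called higher and 3 lower, against 9.33% and 6.12% of all genes tested, with a median of 0.29. Cish and Socs1 fell by 4.99 (limma adjusted p = 2.18e-09) and 3.55 (limma adjusted p = 2.44e-05).

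Of the shared subunits in muscle, Il2rg was called higher in LPS-MIC-1, by 1.37 against LPS (limma adjusted p = 4.11e-04). Il12a, the chain IL-12 adds to Il12b, had 5.95 ± 0.893 FPKM for control, 4.28 ± 0.384 for LPS and 2.52 ± 0.212 for LPS-MIC-1, and its level in LPS-MIC-1 was called lower against control (log2 fold change -1.20, limma adjusted p = 5.65e-05). Il6st went from 12.7 ± 0.597 to 15.2 ± 0.395 and 18.5 ± 0.579 FPKM, differences under the fold threshold. Il2rb and Il12rb1 were at or under 0.197 FPKM in all muscle libraries and were not tested.

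Most of the 6 genes known to respond to IL-10 moved in opposite directions in the 2 experiments, a difference that was not itself tested. Between LPS-MIC-1 and LPS, 5 of the 6 were called lower in C2C12, all but Sbno2, against 25.6% of all genes tested. In muscle 5 of the 6 were called higher, all but Etv3, against 9.67% of all genes tested. Socs3, for example, had 298 ± 2.47 FPKM for LPS against 23.4 ± 5.68 for LPS-MIC-1 in C2C12, and 0.697 ± 0.395 and 5.84 ± 0.821 in muscle. Zfp36 had 1006 ± 30.1 and 37.7 ± 15.1 FPKM in C2C12, and 8.87 ± 0.996 and 66.1 ± 2.59 in muscle. Mean levels of Il10 and Il10ra in muscle LPS-MIC-1 were 0.0799 and 0.208 FPKM. These 6 genes are known to respond to other cytokines too, and the link of their levels to IL-10 was not tested. Stat3, the factor that IL-10 activates, was called higher in muscle LPS-MIC-1 as well, by 2.06 (limma adjusted p = 1.75e-08) against LPS.

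**Figure D5:**
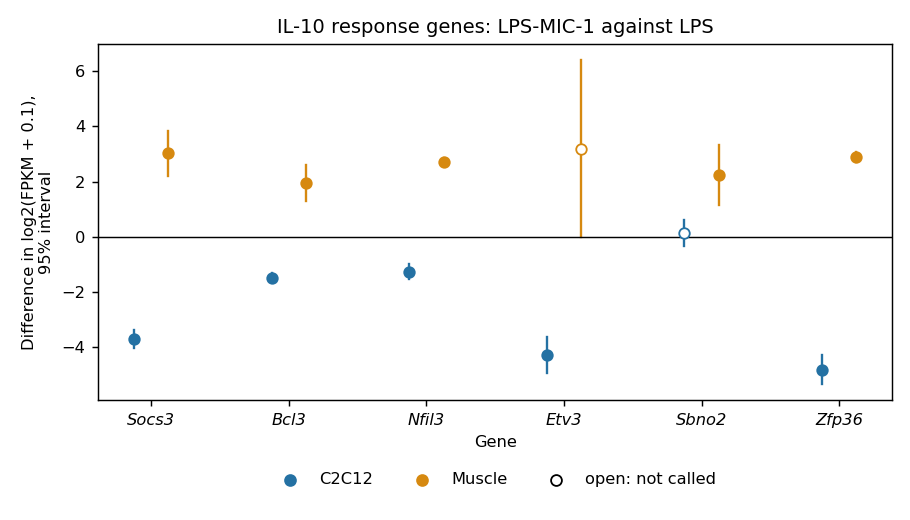
Fitted difference between LPS-MIC-1 and LPS for the 6 IL-10 response genes, as log2(FPKM + 0.1) with 95% intervals on the vertical axis, in the C2C12 and in the muscle libraries. Filled points were called and open points were not. In C2C12 5 of the 6 are called below 0, and in muscle 5 of the 6 are called above it. Etv3 was tested in muscle only through its LPS-MIC-1 libraries.

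Over the 9 libraries of an experiment, the gene most like each of these was taken as the one with the highest Pearson correlation of log2(FPKM + 0.1), among the 31 of these and the pathway genes tested in C2C12. The closest pairs were Il10ra with Stat6 (r = 0.999), Il15ra with Il2rg (r = 0.995) and Ebi3 with Il15 (r = 0.992). Il4ra was most like Il13ra2 (r = 0.984), Il10rb most like Il12rb1 (r = 0.986), Il27 most like Il7r (r = 0.972) and Il10 most like Jak2 (r = 0.948), and Il13ra1 had no close partner (highest r = 0.668, with Il10rb). In muscle, among 23 genes, Il4ra was most like Nfil3 (r = 0.918), Il10rb most like Cish (r = 0.910) and Il15ra most like Socs1 (r = 0.792). The 9 points are 3 groups of 3, so genes that differ between groups in the same way correlate. Within the C2C12 groups, after each group's mean was removed, r was 0.982 for Il10ra with Stat6, 0.917 for Ebi3 with Il15 and 0.183 for Il15ra with Il2rg. It was 0.0361 for Il4ra with Il13ra2 and -0.202 for Il10 with Jak2. For Il27, Il10rb and Il13ra1 with the gene most like each, it was 0.820, 0.746 and 0.743. In LPS-MIC-1 replicates 1, 2 and 3, Il10ra had 0.377, 0 and 0 FPKM and Stat6 had 1.94, 0.468 and 0.326, so replicate 1 was the highest for both genes.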

How the data were processed

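RNA of 18 libraries was sequenced, 9 from C2C12 cells and 9 from gastrocnemius muscle, with groups and replicate numbers taken from the sample labels. The authors pseudoaligned reads with kallisto 0.46.11 and deposited FPKM values per gene symbol and library (build mm9 in the submitters' processing notes). Symbols carry no position or sequence, so overlapping or near-identical genes could not be checked. The authors' DESeq2 1.30.13 tables hold a signal of mean normalized counts, used here only as authors' means for depth, and fold changes and p-values, which were not used. The muscle table of control against LPS was left out because its means rest on other counts. In the muscle FPKM table, 9 columns of per-sample values without a name were not used. Depth per library is unknown, so no counting intervals are given.

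The 2 experiments were modelled separately with limma 3.58.1 (R 4.3.3), taking log2(FPKM + 0.1) of genes with a mean over 1 FPKM, with eBayes trend and 1 spread per gene over 9 libraries. Fold changes of low genes are understated on this scale and depend on the pseudocount. Exact permutation tests used scipy 1.17.1 in Python 3.11.15, and figures matplotlib 3.10.9. The steps were tested on simulated data. No 2 libraries held identical values.

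The members, lists and tests were chosen with earlier results of these data known. All members are named. Of the pathway genes, those named are the 3 largest called changes of each comparison, Il2rg, Il2rb, Il6st, Il12a and Il12rb1, and the genes most like a member, and 1 gene that this rule names is not reported here. Etv3, Sbno2, Bcl3, Stat3 and the single marker genes are outside this rule and were named or drawn after their values were seen. Alternatives were pseudocounts of 1 and 0.01, no mean filter (above 0 in at least 3 libraries), a mean over 5, median-ratio scaling, only the 6 libraries compared, a replicate block, eBayes without trend or robust, and leaving out each library.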

Additional observations from a re-analysis of the deposited data

Results flagged for a closer look

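Ebi3, Il4ra and Il15ra had differences of opposite direction in the C2C12 and the muscle libraries under the same contrast, with groups that did not overlap. Such groups were common, at 79.4 to 85.5% of all genes tested in C2C12 and 36.5 to 64.6% in muscle, and the difference between the experiments was not tested. Several of these differences did not pass the threshold: those of Il15ra in both experiments and that of Il4ra in muscle, while Ebi3 was under the filter in muscle. Ebi3 had a mean of 1.12 FPKM in C2C12 LPS-MIC-1 against 133 in LPS and 45.3 in control, and of 0.909 FPKM in muscle LPS-MIC-1 against 0.0994 in LPS and 0.123 in control. Il4ra had a mean of 13.5 FPKM in C2C12 LPS against 2.20 in control, and of 0.816 FPKM in muscle LPS against 1.62 in control. Il15ra had a mean of 4.90 FPKM in C2C12 LPS against 3.20 in control, and of 4.89 FPKM in muscle LPS against 8.45 in control. Groups of 3 are too small for the test of single outlying libraries, which was not run.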

How the results depend on the processing

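The count of genes called between C2C12 LPS and control, 2, was 1 with a pseudocount of 0.01 or a mean over 5 FPKM, 4 with only the 6 libraries compared, and 1 to 3 when 1 library was left out. Between C2C12 LPS-MIC-1 and LPS, 8 became 5 with a mean over 5, and against control 6 became 4 to 7 when 1 library was left out. Il10, Il15 and Il15ra, with means over all C2C12 libraries of 1.35, 3.47 and 2.70 FPKM, are not tested with a mean over 5. They were among the 8, and Il10 was among the 2 called between LPS and control. In muscle, the 1 gene called in LPS-MIC-1 against LPS, and the 1 against control, became 3 with no filter and 0 with a mean over 5, where Il4ra is not tested, and the second ranged from 1 to 2 when 1 library was left out. Pathway genes called in these muscle comparisons, 9 and 10, became 5 and 5 with a mean over 5. Il13ra1 changed sign in C2C12 LPS against control without control replicate 1 (with 1 library left out, -0.0349 to 0.00466), and Il15ra in muscle LPS-MIC-1 against LPS without LPS-MIC-1 replicate 2 (-0.0807 to 0.242), neither being called. Of 234 fold changes of single genes under other settings in C2C12, 223 kept direction and call, and of 75 in muscle, 75 did. With 1 library left out, 221 of 243 and 79 of 81 did. The cause of these changes was not tested, apart from fewer genes or libraries in the fit.

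The labels do not say whether libraries with the same replicate number were paired. The deviations of same-numbered libraries correlated with r from -0.0757 to 0.0823, and those of differently numbered libraries with r from -0.0910 to 0.121. No shared deviation was seen, which cannot exclude a pairing. With the replicate number as a block, the count between C2C12 LPS and control was 1, as Il10 lost its call (adjusted p = 0.00261), Il15 lost its call against control (adjusted p = 0.00157), and counts of members called in the other comparisons were within 1.5 times of those without it.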
